A study of Mus musculus with 11 samples.

Results

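The genes described here were 10 components of the bone morphogenetic protein (BMP) pathway, chosen by gene symbol: the ligands Bmp2, Bmp4 and Bmp7, the receptors Bmpr1a and Bmpr2, the antagonists Grem1 and Bambi, and the target genes Id1, Id2 and Id3. All 10 were present among the 47643 gene symbols measured, and all 10 passed the filter on low values, which left 11979 genes for testing. RNA sequencing was performed on fibroblasts from unwounded back skin (normal skin, NS) and from full-thickness excisional wounds at day 5 after injury (5dw). The mice were 9 to 12 weeks old, female and of a mixed CD-1 and C57Bl/6 F1 background. Act mice overexpress activin A, because a human INHBA transgene is driven by the keratin 14 promoter in keratinocytes and not in the fibroblasts themselves, and their wild-type (WT) littermates served as controls. Live CD140a+ CD45- cells were sorted, and each library held the RNA of 3 pooled mice. The sample descriptions give CD3, CD11b and F4/80 as further negative markers. The paper names CD11b and F4/80 but not CD3. WT NS, Act NS and WT 5dw were each represented by 3 libraries, and Act 5dw by 2, numbered 1 and 3. The comparison of 5dw with NS asks how these genes differ between wound and skin fibroblasts, and the comparison of Act with WT asks whether activin alters their expression. The RNA input was 100 ng for NS and 200 ng for 5dw, so tissue and input cannot be told apart.

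BMPs are secreted dimers of the TGF-beta superfamily. They assemble a complex of type I receptors (such as BMPR1A) and type II receptors (such as BMPR2), which phosphorylates SMAD1, SMAD5 and SMAD9, and these enter the nucleus with SMAD4 and bind GC-rich elements and the SMAD-binding element. The Id genes are classical direct targets, and the ID proteins hold back E proteins and other basic helix-loop-helix factors by forming dimers that cannot bind DNA. Signalling is limited outside the cell by ligand traps such as gremlin 1 and noggin, at the membrane by the pseudoreceptor BAMBI, and inside the cell by SMAD6 and SMAD7. In skin, BMPs from the dermis are known for keeping hair follicle stem cells at rest, and gremlin and noggin from the dermis oppose them.

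The promoters of Bmp4, the member with the largest difference between the tissues, and of Grem1, a ligand trap, are shown because these genes encode the opposing sides of the extracellular balance. RefSeq windows from 250 bases before to 50 bases after the start (GRCm38.p6) were found for Bmp4, Bmpr1a, Bmpr2, Grem1, Id2 and Id3, that is for 6 of the 10 members. The 250 bases before the start are printed 5′ to 3′ in the direction of transcription. They come from chr14:46390670-46390919 (minus strand) for Bmp4 and chr2:113758649-113758898 (minus strand) for Grem1. Each stretch lies outside the annotated interval of its own gene. Capitals mark matches, on either strand, to the letters GGCGCC or GGAGCC (GC-rich SMAD1/5 elements) and GTCT (the SMAD-binding element).
Bmp4: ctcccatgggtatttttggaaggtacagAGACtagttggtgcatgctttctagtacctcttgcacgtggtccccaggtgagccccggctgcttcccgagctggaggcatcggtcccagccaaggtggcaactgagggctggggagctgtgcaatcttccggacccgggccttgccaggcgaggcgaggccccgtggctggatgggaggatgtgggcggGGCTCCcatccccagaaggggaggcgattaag
Grem1: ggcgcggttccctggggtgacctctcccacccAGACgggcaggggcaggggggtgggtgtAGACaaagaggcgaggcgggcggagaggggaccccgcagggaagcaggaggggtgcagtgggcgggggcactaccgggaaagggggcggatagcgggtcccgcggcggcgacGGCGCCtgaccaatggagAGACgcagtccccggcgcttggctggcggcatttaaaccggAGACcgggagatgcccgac
The Bmp4 stretch held 1 match to GGAGCC and 1 to GTCT. The Grem1 stretch held 1 match to GGCGCC and 4 to GTCT. Matches to these 3 strings cannot overlap each other.

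Over the full 300-base windows, GGCGCC was found in Bmpr1a, Bmpr2, Grem1 and Id2, against 11.9% of the 32851 RefSeq windows. GGAGCC was found in Bmp4, Id2 and Id3 (30.8% of all windows), and GTCT in every window but that of Bmpr2 (88.0%). The E-box CANNTG, the site of the factors that ID proteins hold back, was found in Bmp4 and Id2 (72.3%) and can overlap the other strings. The windows of the members had a GC content of 59.3 to 79.3%, which was not matched in these shares. A match describes the letters only.

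Between 18649321 and 39702138 mapped reads stood behind each library, as worked out from the values. Values are RPKM, reads normalised for gene length and sequencing depth, which may be compared between genes. The first principal component (76.1% of the variance) separated NS from 5dw. On the second (7.06%), WT NS 1 (22.4) and Act NS 1 (35.8) lay apart from the other NS libraries (-18.0 to -7.42), and results that rest on them are also given without them. In Act NS, Inhba exceeded its WT level 9.86-fold on the log2(RPKM + 0.5) scale (limma, adjusted p = 0.0128). In 5dw it was at 15.8 to 24.0 RPKM in WT and at 26.2 and 50.2 RPKM in Act mice, a 1.81-fold difference that was not called (adjusted p = 1, unadjusted p = 0.0600, limma). Inhba was 3.42-fold higher in WT 5dw than in WT NS (adjusted p = 0.00198), and its interaction of wounding and genotype was -2.45 (adjusted p = 0.549). Whether reads of the human transgene were counted on this mouse gene was not tested. Pdgfra, which encodes the sort marker CD140a, was at 49.8 to 65.3 RPKM in NS and 29.6 to 37.3 RPKM in 5dw (log2FC -0.63, adjusted p = 0.00250, limma, in WT and -0.80, adjusted p = 0.00182, in Act mice). With median-ratio scaling the WT call of Pdgfra was lost (-0.18, adjusted p = 0.269). Of 12 fibroblast markers, 6 were lower and 4 higher in WT 5dw. The immune marker Ptprc was at or below 0.0498 RPKM, but other immune markers were detected. Cd3e was at 2.94 to 33.9 RPKM in NS and 55.5 to 104.7 RPKM in 5dw. Cd68 was at 4.69 to 12.0 RPKM over all libraries, and Csf1r and Lyz2 reached 4.48 and 4.00 RPKM. Keratinocyte markers were detected in all libraries and are given below beside the members. In Act NS 1, 2 and 3 their sum was 1244, 2941 and 4562 RPKM, and Inhba was at 36.3, 59.1 and 91.1 RPKM. In WT NS the library with the highest sum, WT NS 3, had the lowest Inhba (3.40 RPKM). The part of keratinocytes in the Inhba level was not tested.

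In unwounded skin, Id3 had the highest level of the 10 members and Bambi the lowest. The mean over the 6 NS libraries was 110.6 ± 16.4 RPKM (SD, n = 6) for Id3 and 70.7 RPKM for Id2, and these 2 genes did not overlap each other or any other member within either genotype. Id1, Bmp2, Bmpr1a, Bmp4, Bmp7 and Bmpr2 followed, with means from 19.2 down to 9.53 RPKM, and each overlapped the next in the order. Grem1 (4.43 RPKM) and Bambi (1.92 RPKM) were lowest and overlapped. In 5dw the order was different: Id3 (40.6 RPKM) and Id2 (32.6 RPKM) were followed by the receptors Bmpr1a (9.65 RPKM) and Bmpr2 (9.05 RPKM). Both receptors stood above Bmp2, Bmp4 and Bmp7. Bmp2, Id1, Bambi, Grem1 and Bmp7 had means of 3.04 to 1.35 RPKM, each overlapping the next, and Bmp4 (0.364 RPKM) was below every other member in every library.

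**Figure D1:**
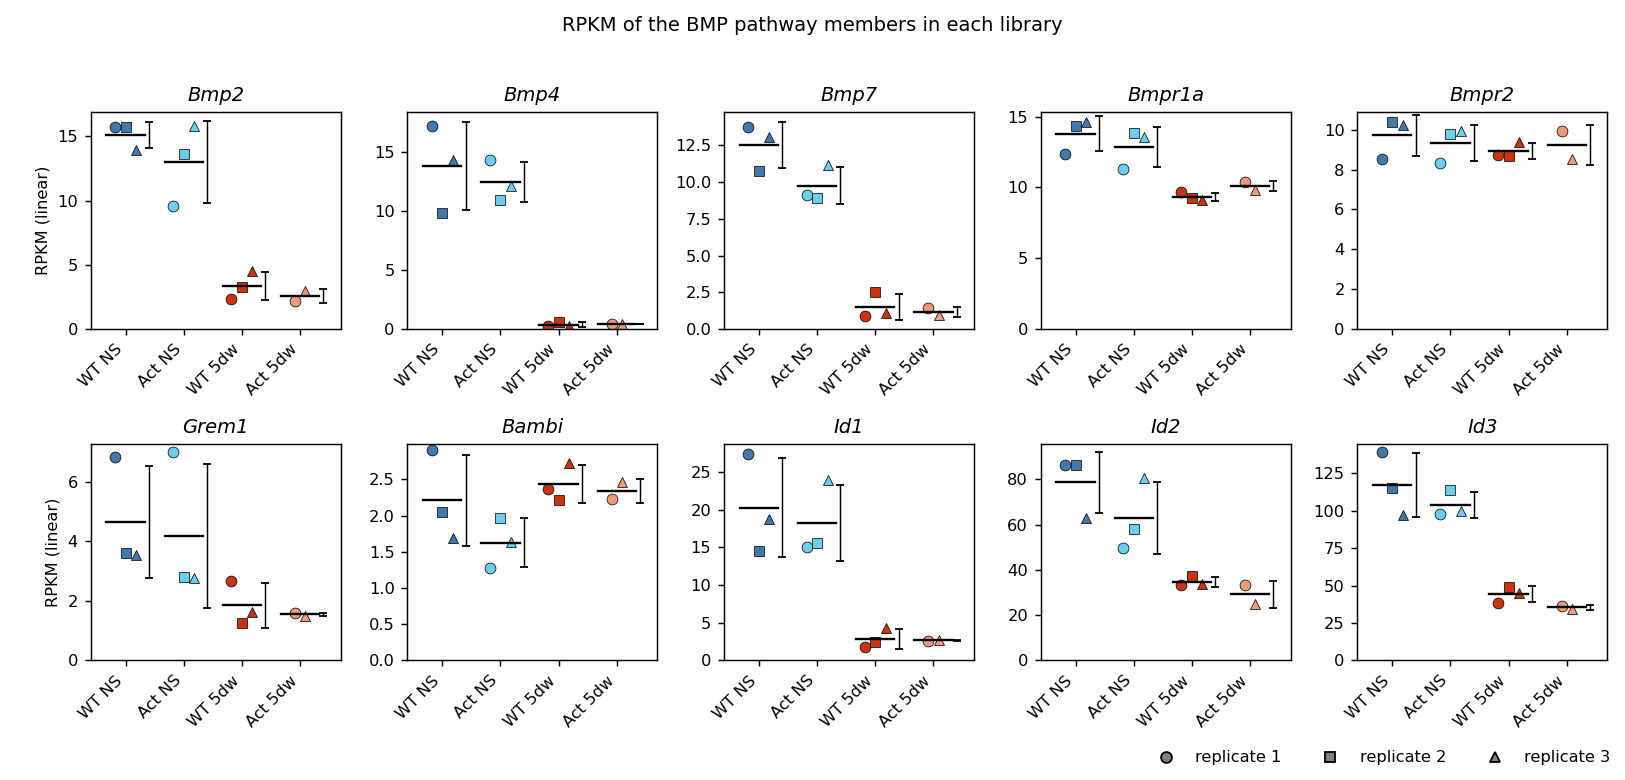
RPKM (linear axis from 0) of the 10 members in each library, by group. Points are libraries, their shape gives the replicate number, the horizontal line is the group mean and the bar beside it is ± 1 SD (n = 3, and n = 2 for Act 5dw). For 8 genes all 5dw libraries lie below all NS libraries, while Bmpr2 and Bambi overlap.

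Wound fibroblasts had lower levels of Bmp2, Bmp4 and Bmp7 and of Id1, Id2 and Id3 than skin fibroblasts in both genotypes. In WT mice, 8 of 10 members were lower in 5dw than in NS and none was higher (limma-trend, adjusted p under 0.05), where 48.8% of all genes tested were called lower, 9.45% higher and 58.3% in either direction. In Act mice, 7 of 10 were lower, where 36.5% of all genes were called lower, 9.04% higher and 45.6% in either direction. The median log2FC of the members was -1.27 in WT and -1.31 in Act mice, compared with -0.40 and -0.31 for all genes tested. All 5dw libraries were below all NS libraries for 8 members and above them for none, and these arrangements held for 38.9% and 8.45% of all genes. A large share of all genes was thus lower in wounds as well. In bulk RNA, fewer cells of a type that expresses a gene cannot be told apart from less RNA per cell.

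Bmp4, which encodes a ligand of the BMP2/4 branch, showed the largest difference. Its level was 17.2, 9.84 and 14.3 RPKM in WT NS, 14.3, 10.9 and 12.1 RPKM in Act NS, 0.215, 0.569 and 0.232 RPKM in WT 5dw and 0.416 and 0.386 RPKM in Act 5dw. All NS libraries were far above all 5dw libraries, where between 19 and 49 reads were counted on the gene, against 408 to 964 in NS. The log2FC was -4.08 ± 0.21 (SE; adjusted p = 5.32e-07, limma) in WT and -3.83 (adjusted p = 2.14e-06) in Act mice. Bmp4 passed the filter on low values through NS alone, which fixed the direction that a call could take. With no filter its log2FC was the same and the adjusted p was 1.07e-05 in WT and 3.41e-05 in Act mice (limma). Only 0.24% of the genes tested had a lower log2FC in WT and 0.41% in Act mice, which is given as a description. The pseudocount of 0.5 RPKM compresses this change: the ratio of the mean RPKM of NS to that of 5dw was 40.6 in WT and 31.0 in Act mice, and the log2FC from the reads themselves was -5.44 in WT and -4.92 in Act mice (limma-voom). With a pseudocount of 1 it was -3.44 and -3.25, respectively. Bmp4 lies on chromosome 14 (46383520 to 46390669, minus strand, GRCm38).

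Bmp7, a ligand of the BMP5/6/7 branch (chromosome 2, 172868012 to 172940321, minus strand), had 13.7, 10.8 and 13.1 RPKM in WT NS and 9.13, 8.91 and 11.2 RPKM in Act NS. In 5dw it had 0.846, 2.49 and 1.11 RPKM in WT and 1.41 and 0.913 RPKM in Act mice. The tissues did not overlap, and WT 5dw 2 was the highest wound library for Bmp7 as it was for Bmp4. The log2FC was -2.80 ± 0.26 (SE; adjusted p = 1.50e-05, limma) in WT and -2.64 (adjusted p = 6.66e-05) in Act mice, and the means differed 8.46-fold and 8.41-fold.

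Bmp2, the close relative of Bmp4 (chromosome 2, 133552159 to 133562885, plus strand), had 15.7, 15.7 and 13.9 RPKM in WT NS and 9.56, 13.6 and 15.8 RPKM in Act NS. It retained more of its level in wounds than Bmp4 and Bmp7. In 5dw it had 2.32, 3.28 and 4.47 RPKM in WT and 2.15 and 2.96 RPKM in Act mice. The tissues did not overlap. The log2FC was -2.05 ± 0.22 (SE; adjusted p = 4.61e-05, limma) in WT and -2.13 (adjusted p = 1.10e-04) in Act mice. The 3 ligands had similar levels in skin (group means of 9.75 to 15.1 RPKM), whereas in WT 5dw every library of Bmp2 was above the Bmp4 level of all wound libraries.

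The receptors changed little. Bmpr1a, the type I receptor of BMP2 and BMP4 (chromosome 14, 34410734 to 34503341, minus strand), had 12.4, 14.4 and 14.6 RPKM in WT NS, 11.3, 13.8 and 13.6 RPKM in Act NS, 9.65, 9.27 and 9.12 RPKM in WT 5dw and 10.4 and 9.84 RPKM in Act 5dw. The tissues did not overlap, but the distance was small. The log2FC was -0.53 ± 0.12 (SE; adjusted p = 0.00285, limma) in WT and -0.33 (adjusted p = 0.0590) in Act mice, close to the medians of all genes. The call in WT was lost with median-ratio scaling, which levels the median gene between libraries (log2FC -0.10, adjusted p = 0.396). In Act mice the gene was called without Act NS 1 (-0.42, adjusted p = 0.0173).

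Bmpr2, the type II receptor (chromosome 1, 59763400 to 59879014, plus strand), had 8.52, 10.4 and 10.3 RPKM in WT NS and 8.31, 9.77 and 9.96 RPKM in Act NS. In 5dw it had 8.75, 8.66 and 9.39 RPKM in WT and 9.93 and 8.53 RPKM in Act mice. The tissues overlapped, and the log2FC was -0.11 (95% interval -0.38 to 0.16; adjusted p = 0.455, limma) in WT and -0.02 (-0.32 to 0.29; adjusted p = 0.935) in Act mice. With median-ratio scaling the direction turned and Bmpr2 was called higher in 5dw, at a log2FC of 0.32 in WT (adjusted p = 0.0236) and 0.32 in Act mice (adjusted p = 0.0406).

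Grem1, which encodes the BMP2 and BMP4 trap gremlin 1 (chromosome 2, 113746164 to 113758646, minus strand), had 6.83, 3.61 and 3.54 RPKM in WT NS, 6.99, 2.81 and 2.78 RPKM in Act NS, 2.68, 1.25 and 1.61 RPKM in WT 5dw and 1.59 and 1.51 RPKM in Act 5dw. In each of the 3 groups with 3 libraries, the library numbered 1 was well above the others. The tissues did not overlap, with the lowest NS library at 2.78 and the highest 5dw library at 2.68 RPKM. The log2FC was -1.13 ± 0.34 (SE; adjusted p = 0.0164, limma) in WT and -1.08 (adjusted p = 0.0396) in Act mice.

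These calls of Grem1 were the least stable of the members. In WT mice the call was lost without WT NS 1 (log2FC -0.84, adjusted p = 0.0642), without WT 5dw 2 (-0.94, adjusted p = 0.0638) and with median-ratio scaling (-0.74, adjusted p = 0.142). In Act mice it was lost without Act NS 1 (-0.69, adjusted p = 0.0960), without WT 5dw 3 (adjusted p = 0.0503), without Act 5dw 1 (adjusted p = 0.123) and without Act 5dw 3 (adjusted p = 0.149). There it was also lost with no filter on low values (adjusted p = 0.0914), median-ratio scaling (-0.80, adjusted p = 0.162), limma-voom (-1.30, adjusted p = 0.0621) and a fit of the compared groups alone (adjusted p = 0.0512). The direction was the same in all of these.

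Bambi, which encodes a pseudoreceptor without a kinase domain (chromosome 18, 3507923 to 3516404, plus strand), had 2.91, 2.04 and 1.69 RPKM in WT NS and 1.28, 1.96 and 1.64 RPKM in Act NS. In 5dw it had 2.36, 2.21 and 2.72 RPKM in WT and 2.22 and 2.46 RPKM in Act mice. WT NS 1 was the highest of all libraries, and the tissues overlapped. The log2FC was 0.13 (95% interval -0.26 to 0.52; adjusted p = 0.532, limma) in WT and 0.43 (-0.0041 to 0.86; adjusted p = 0.0964) in Act mice. With median-ratio scaling Bambi was called higher in 5dw (0.50, adjusted p = 0.0340 in WT, and 0.72, adjusted p = 0.0124 in Act mice), and without WT NS 3 the value in WT was -0.0097.

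Among the targets, Id1 showed the strongest decrease. It encodes an inhibitor of DNA binding (chromosome 2, 152736251 to 152737410, plus strand) and had 27.5, 14.6 and 18.8 RPKM in WT NS and 15.1, 15.5 and 24.0 RPKM in Act NS. In 5dw it had 1.74, 2.43 and 4.31 RPKM in WT and 2.60 and 2.69 RPKM in Act mice. The lowest NS library (14.6 RPKM) was well above the highest 5dw library (4.31 RPKM). The log2FC was -2.67 ± 0.30 (SE; adjusted p = 5.12e-05, limma) in WT and -2.54 (adjusted p = 2.06e-04) in Act mice, which placed Id1 between Bmp2 and Bmp7 in both genotypes.

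Id3 (chromosome 4, 136143497 to 136145755, plus strand), the most abundant member, had 139.5, 115.5 and 97.0 RPKM in WT NS, 98.0, 114.1 and 99.6 RPKM in Act NS, 38.4, 49.1 and 44.9 RPKM in WT 5dw and 36.7 and 34.0 RPKM in Act 5dw. The tissues did not overlap, and the mean fell 2.66-fold in WT and 2.94-fold in Act mice. The log2FC was -1.39 ± 0.16 (SE; adjusted p = 5.18e-05, limma) and -1.54 (adjusted p = 8.22e-05). Id2 (chromosome 12, 25093799 to 25097140, minus strand) had 86.5, 86.6 and 62.9 RPKM in WT NS, 49.8, 57.9 and 80.5 RPKM in Act NS, 33.4, 37.4 and 33.6 RPKM in WT 5dw and 33.5 and 25.1 RPKM in Act 5dw. The log2FC of Id2 was -1.15 ± 0.20 (SE; adjusted p = 7.31e-04, limma) in WT and -1.07 (adjusted p = 0.00294) in Act mice, again without overlap of the tissues. Even in wounds, the lowest library of Id2 (25.1 RPKM) was above the highest of Id1 (4.31 RPKM).

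**Figure D2:**
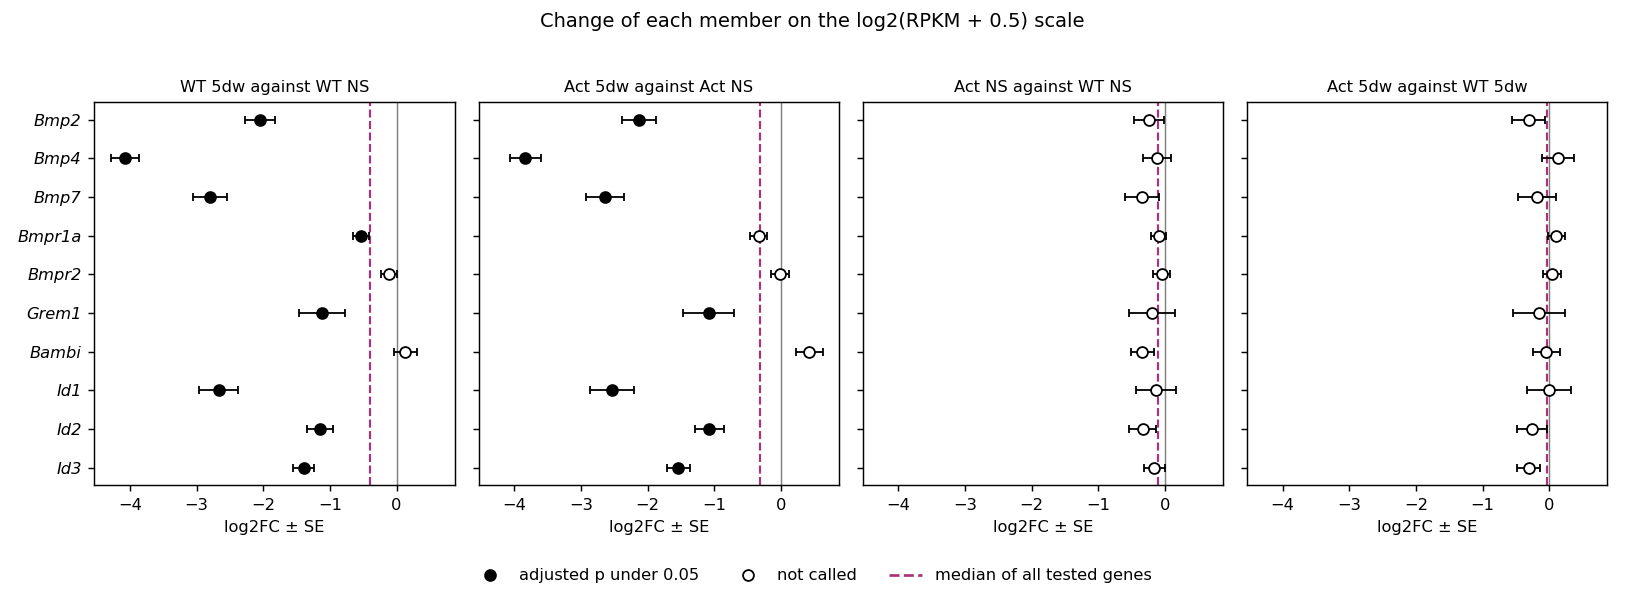
log2FC ± SE of each member on the log2(RPKM + 0.5) scale in the 4 comparisons (limma-trend). Filled points have an adjusted p under 0.05 and the dashed line is the median of all 11979 genes. The ligands and Id genes lie to the left of that line in both wounding comparisons, and in the genotype comparisons no member was called.

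The scale of the comparison matters for the weakly changed members. With median-ratio scaling, the median log2FC of all genes moved from -0.40 to -0.0043 in WT and from -0.31 to 0.0019 in Act mice, and the calls over all genes went from 1132 higher and 5846 lower to 2684 higher and 2655 lower in WT. In Act mice they went from 1083 higher and 4376 lower to 2384 higher and 2492 lower. Of the members, 6 were then lower (Bmp2, Bmp4, Bmp7, Id1, Id2 and Id3) and 2 higher (Bmpr2 and Bambi) in each genotype. The 3 ligands and the 3 Id genes were called lower under each alternative tried, while the receptors, Grem1 and Bambi were not called alike under all of them.

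Activin overexpression was not accompanied by a detectable difference in any member. In NS, 0 of 10 members were called between Act and WT (limma), and 0 had an unadjusted p under 0.05, where 0.0167% of all genes were called. The log2FC ranged from -0.35 (Bmp7, 95% interval -0.91 to 0.22) to -0.05 (Bmpr2, -0.32 to 0.22), and the adjusted p was at least 0.701. Fitting the recovered reads with limma-voom also called 0 members. All 10 values were negative, and 6 of 10 with median-ratio scaling, while the median of all genes was -0.11, and the genotypes overlapped for all 10. Over all genes, all Act NS libraries were below all WT NS libraries in 7.98% and above them in 0.993%.

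In 5dw, 0 of 10 members were called between Act and WT (limma), where 0.0334% of all genes were called. The number with an unadjusted p under 0.05 was again 0, and limma-voom called 0. The log2FC ranged from -0.31 (Bmp2, 95% interval -0.86 to 0.24, and Id3, -0.69 to 0.07) to 0.13 (Bmp4, -0.39 to 0.65). Id3 was lower in both Act 5dw libraries than in all 3 of WT 5dw, and 15.2% of all genes showed this arrangement. Bmpr1a was higher in both, as were 7.87% of all genes. The remaining 8 members overlapped. The intervals reach a change of about 2-fold for Grem1 (-1.001 to 0.696), so that differences of that size could not be told from 0 with 2 libraries in the group.

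The response to wounding was also not detectably different between the genotypes. In the interaction of wounding and genotype, 0 of 10 members were called (limma), where 0% of all genes were called. Limma-voom called 0 members, 0 had an unadjusted p under 0.05, and the smallest unadjusted p was 0.270 for Bmpr1a, with an interaction of 0.20 (95% interval -0.18 to 0.59). The interactions ranged from -0.15 (Id3) to 0.30 (Bambi), and that of Bmp4 was 0.24 (-0.45 to 0.94).

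The other genes of the pathway were taken from lists by role, 69 genes in addition to the members. Of these, 68 were in the table and 51 passed the filter on low values. A gene could pass through 1 tissue alone, as Bmp5, Bmp8a, Gdf6, Rgmb, Nog, Sostdc1, Atoh8, Hey1 and Dlx5 did through NS and Bmpr1b and Tbx3 through 5dw. The filter fixed the direction that calls of these genes could take, so the counts describe only the genes that passed. In WT mice, 25 were lower and 5 higher in 5dw, with a median log2FC of -0.56, where 48.8% of all genes tested were lower and 9.45% higher. In Act mice 22 were lower and 5 higher, with a median of -0.51, where 36.5% of all genes were lower and 9.04% higher. Counts near these shares, including those by role below, do not set the pathway genes apart from all genes. With median-ratio scaling, 16 were lower and 10 higher in WT and 14 lower and 10 higher in Act mice. Between Act and WT, 0 of the 51 were called in either tissue with limma or limma-voom, and 2 in each tissue had an unadjusted p under 0.05.

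Of the other ligands tested, 3 of 6 were lower in each genotype and none was higher, and 2 of 6 were lower with median-ratio scaling. Bmp5, which belongs to the same branch as Bmp7, was at 1.63 ± 0.40 RPKM (SD, n = 6) in NS and 0.0499 ± 0.0227 RPKM (n = 5) in 5dw, with a log2FC of -1.79 (adjusted p = 2.40e-05, limma, and 1.04e-04 with no filter) in WT mice. It passed the filter through NS alone. Bmp8a (-1.72) and Gdf10 (-0.56) were also lower in WT mice, and the call of Gdf10 was lost with median-ratio scaling (-0.12, adjusted p = 0.560). Another 6 ligands, among them Gdf5 and Bmp10, did not exceed 0.177 RPKM in any library.

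Of the other receptors, the type I receptor Bmpr1b passed the filter through 5dw alone, so its direction was fixed by the filter. It was at 0.0560 ± 0.0287 RPKM (SD, n = 6) in NS and 1.90 ± 0.34 RPKM (n = 5) in 5dw, without overlap, with a log2FC of 2.11 (adjusted p = 6.22e-06, limma, and 3.17e-05 with no filter) in WT and 2.09 (adjusted p = 2.31e-05 and 9.23e-05) in Act mice. Its level in 5dw stayed below that of Bmpr1a in every library. The endothelial type I receptor Acvrl1 (-0.80) and the activin and BMP type II receptor Acvr2a (-0.79) were lower in WT mice, and the call of Acvrl1 was lost with median-ratio scaling. All 4 co-receptors tested were lower in both genotypes: Rgma (-1.21 in WT), Rgmb (-1.16), Eng (-1.01) and Tgfbr3 (-0.48). With median-ratio scaling, 2 of the 4 were lower in WT and 3 in Act mice.

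Of the other secreted antagonists, Chrdl1, which encodes the BMP4 trap chordin-like 1, fell from 39.1 ± 12.1 RPKM (SD, n = 6) in NS to 10.9 ± 4.4 RPKM (n = 5) in 5dw, with a log2FC of -2.14 (adjusted p = 4.97e-04, limma) in WT and -1.42 (adjusted p = 0.0121) in Act mice. Nog, which encodes noggin, was at 1.69 ± 0.63 RPKM in NS and 0.242 ± 0.080 RPKM in 5dw (-1.61, adjusted p = 3.41e-04, in WT, and 0.00148 with no filter), and it passed the filter through NS alone. Sostdc1, a BMP and Wnt antagonist of hair follicles, was called in WT (-2.81, adjusted p = 0.00905), and in Act mice its log2FC was -1.30 (adjusted p = 0.234), with a spread of 0.883 to 14.5 RPKM within NS. Twsg1 (-0.83) was also lower in WT. Of the 14 antagonists and modulators other than Grem1 that were tested, 5 were lower and 2 were higher in WT, the latter being Bmper (0.75) and Fstl1 (0.74), which encodes a follistatin-like glycoprotein.

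Inside the cell, the inhibitory Smad6, itself a BMP target, was lower in WT (-0.82) and Act mice (-0.92, adjusted p = 0.00545, limma). Ski (-0.79), Smurf1 (-0.67) and Smurf2 (-0.66), which encode a co-repressor and ubiquitin ligases, were lower in WT mice. With median-ratio scaling none of these 4 calls remained in WT mice, where 0 of the 8 inhibitors tested were lower and 2 higher, and Smad6 was still called in Act mice (-0.66, adjusted p = 0.0350). Of the 5 signal transducers tested, Smad5 was called in WT mice (-0.51, adjusted p = 0.00929, limma), and its log2FC in Act mice was -0.31 (adjusted p = 0.123). This call was lost with median-ratio scaling (-0.077, adjusted p = 0.663). Of the E proteins, the partners of ID proteins, Tcf4 was lower in both genotypes (-0.93 in WT), and Tcf3 (-0.17) and Tcf12 (-0.28) were not called.

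The other target genes split into both directions. Msx1 fell from 4.51 ± 1.42 RPKM (SD, n = 6) to 1.12 ± 0.34 RPKM (n = 5), with a log2FC of -1.56 (adjusted p = 1.75e-04, limma) in WT mice, and Atoh8 from 2.16 ± 0.84 to 0.518 ± 0.074 RPKM (-1.53, adjusted p = 7.34e-04). In contrast, Tbx3 rose from 0.577 ± 0.165 to 2.64 ± 0.48 RPKM (1.62, adjusted p = 6.65e-05), and Runx2, a regulator of osteoblasts, was also higher (1.41, adjusted p = 4.42e-05). The direction of Atoh8, Hey1 and Dlx5 (at most 0.607, 0.158 and 0.326 RPKM in 5dw) and of Tbx3 (at most 0.828 RPKM in NS) was fixed by the filter, which they passed through 1 tissue alone. Id4, the remaining Id gene, was lower (-1.11 in WT and -1.30 in Act mice).

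**Figure D3:**
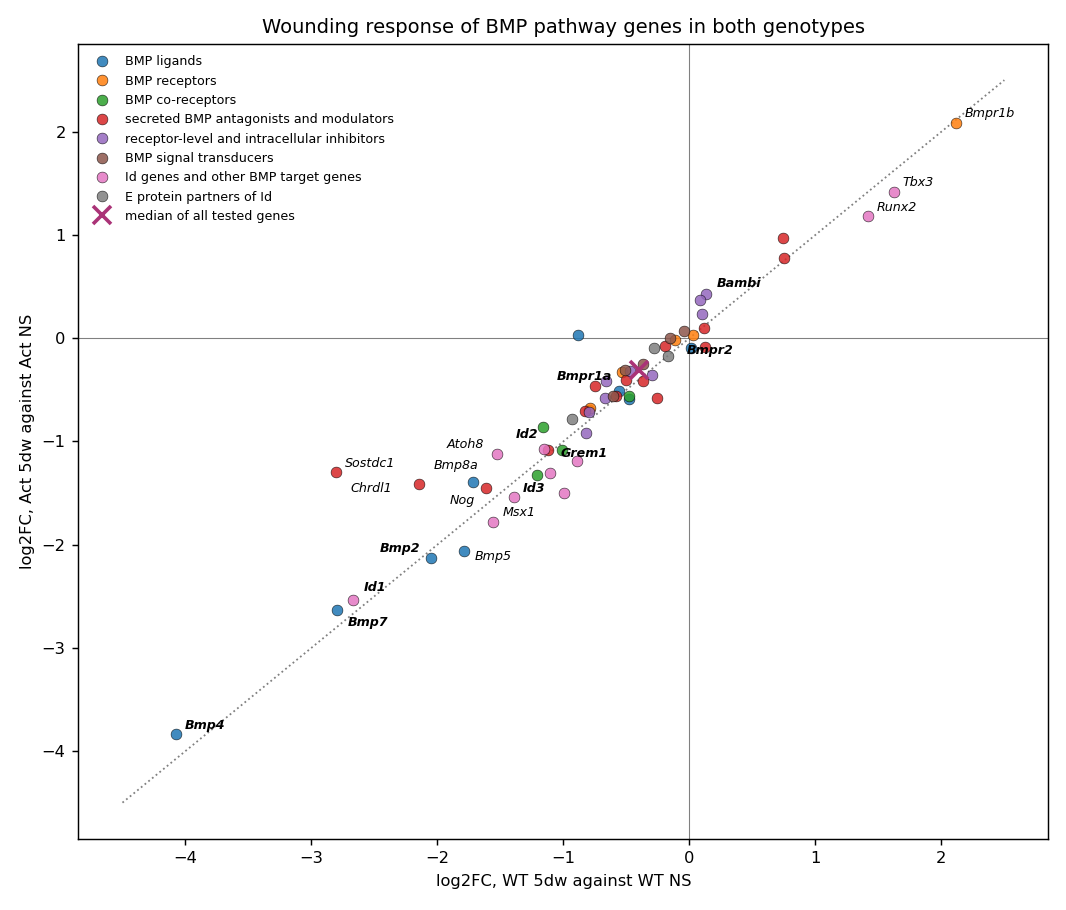
log2FC of 5dw against NS in WT mice (x axis) and Act mice (y axis) on the log2(RPKM + 0.5) scale for the 10 members (bold) and the 51 other pathway genes tested, coloured by role. The dotted line marks equal values and the cross the median of all genes (-0.40 and -0.31). Bmp4 lies farthest down in both genotypes and Bmpr1b farthest up.

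Markers of other cells were examined beside these results. The summed level of 14 keratinocyte markers was 1209 to 2189 RPKM in WT NS, 1244 to 4562 RPKM in Act NS, 171 to 1499 RPKM in WT 5dw and 381 to 458 RPKM in Act 5dw. Of the 14 markers, 10 were lower and 1 (Krt6a) higher in WT 5dw than in WT NS, none was at 0 in every library, and Krt5 was at 24.5 to 410.0 RPKM. Most of these markers were thus lower in wounds, as were the 3 ligands and the 3 Id genes. Within NS the sum did not follow all of these genes. WT NS 1 had the lowest sum of NS (1209 RPKM) and the highest Bmp4, Bmp7, Id1 and Id3. Bmp2 was highest in Act NS 3, which had the highest sum (4562 RPKM), and Id2 in WT NS 2. Epidermal and follicle cells express several BMP pathway genes, and the part of these cells in the result was not tested. The sum of WT 5dw 3 (1499 RPKM) was above those of WT NS 1 (1209) and Act NS 1 (1244), and was carried by Krt14 (528 RPKM), Krt6a (265 RPKM), Krt5 (253 RPKM) and Krt16 (186 RPKM). Its levels of Krt10 (31.9 RPKM), Krt1 (29.5 RPKM), Krt15 (0.788 RPKM) and Epcam (2.03 RPKM) were below those of every NS library, as were its Bmp4 (0.232 RPKM), Bmp7 (1.11 RPKM), Bmp2 (4.47 RPKM) and Id1 (4.31 RPKM). Among the wound libraries it was the highest for Bmp2 and Id1.

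**Figure D4:**
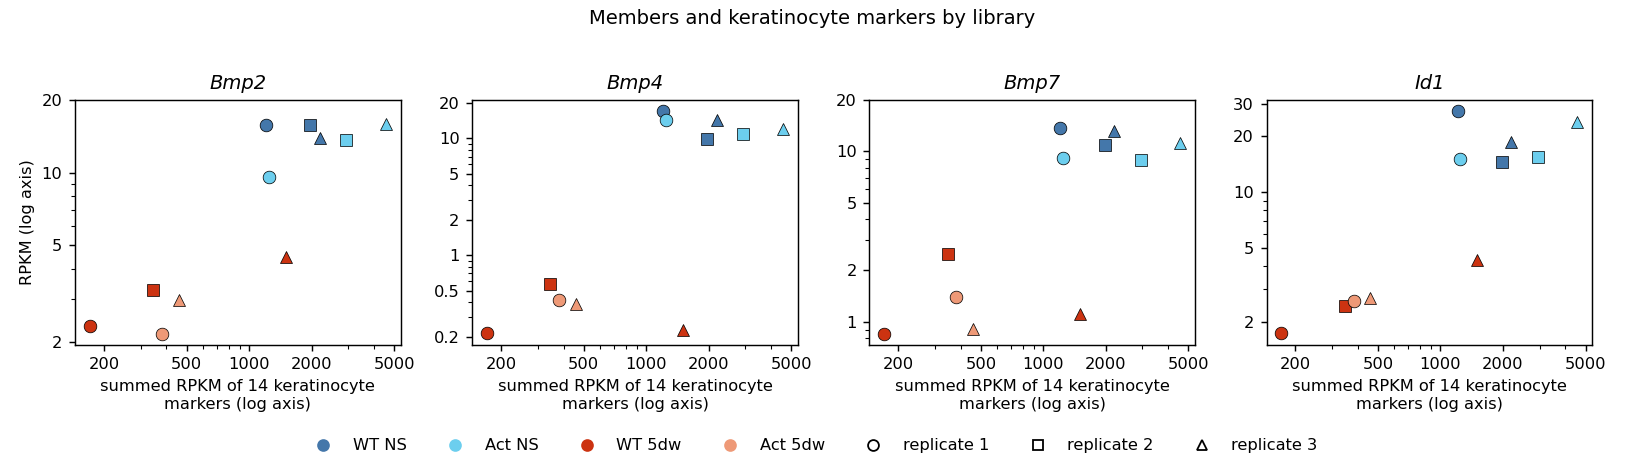
RPKM of Bmp2, Bmp4, Bmp7 and Id1 (y axis, log scale) against the summed RPKM of 14 keratinocyte markers (x axis, log scale), one point per library, with colour for the group and shape for the replicate number. WT 5dw 3 has a marker sum of 1499, within the range of the NS libraries and carried by Krt14, Krt6a, Krt5 and Krt16, and its levels of the 4 genes are below those of every NS library. The part of keratinocytes in these levels was not tested.

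The summed level of 7 dermal papilla markers, which mark the fibroblasts at the base of the hair follicle, was 32.1 to 63.4 RPKM in NS and 49.8 to 120.9 RPKM in 5dw, most of it Crabp1 (25.0 to 51.5 RPKM in NS and 45.3 to 119.2 RPKM in 5dw). Of the 4 markers tested, 1 was higher and 2 lower in WT mice, and 0 higher and 2 lower in Act mice. Corin was at 0.580 to 13.5 RPKM in NS, 0.0191 to 0.0373 RPKM in WT 5dw and 1.07 to 1.80 RPKM in Act 5dw, and Sox2 was at 0 in all 5dw libraries. Lef1 (0.642 to 1.22 RPKM in NS, at most 0.0610 RPKM in 5dw), Alx4 (0.0674 to 0.365 RPKM, at most 0.0138 RPKM) and Prom1 (0.155 to 0.983 RPKM, at most 0.0543 RPKM) were also lower without overlap. Within each genotype these 5 of the 7 markers were lower in all 5dw than in all NS libraries, as were Bmp4 and the Id genes. Sox2, Alx4 and Prom1 stayed below 1 RPKM and did not pass the filter. Rspo3 was lower in WT 5dw but overlapped in Act mice (0.698 to 4.89 RPKM in NS and 2.02 to 2.52 RPKM in 5dw), and Crabp1 was not lower. Of all genes tested, 38.9% had all 5dw libraries below all NS libraries. The part of dermal papilla cells in the result was not tested. The sum of 7 Schwann cell and melanocyte markers was 8.65 to 17.2 RPKM in NS and 2.33 to 3.39 RPKM in WT 5dw, with both Act 5dw libraries also below NS, and that of 6 skeletal muscle markers 2.96 to 6.24 RPKM in NS and 1.81 to 2.44 RPKM in 5dw. Both were lower in 5dw without overlap, as were 8 of the 10 members, and their part was not tested either. The summed level of 18 genes that respond to tissue dissociation was 8153 to 12480 RPKM in NS and 7463 to 9518 RPKM in 5dw, with WT NS 1 highest. This library was also the highest for Bmp4, Bmp7, Bambi, Id1 and Id3, and without WT NS 1 the 3 ligands and the 3 Id genes were still called in WT mice. The sum of 10 immune markers was 15.8 to 48.0 RPKM in NS and 66.0 to 120.0 RPKM in 5dw, where Cd3e alone made up 55.5 to 104.7 RPKM. Of the 4 immune markers tested, 2 were higher and 0 lower in WT mice and 1 was higher and 1 lower in Act mice. The sum of 10 endothelial markers was 33.1 to 40.5 RPKM in WT NS and 22.1 to 25.9 RPKM in WT 5dw, without overlap, and 23.0 to 37.4 RPKM in Act NS and 23.1 to 29.2 RPKM in Act 5dw. The sum of 7 pericyte and smooth muscle markers was 14.4 to 23.4 RPKM in WT NS and 12.1 to 14.4 RPKM in WT 5dw. In Act mice it was 15.2 to 19.3 RPKM in NS and 17.0 to 19.6 RPKM in 5dw. The sum of 6 adipocyte markers was 5.16 to 12.8 RPKM over all libraries with the tissues overlapping. The part of these cells in the result was not tested.

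Finally, the genes whose profile over the 11 libraries was most like that of 3 members were listed, as a description. For Bmp4 these were Hmcn2 (root mean square difference of 0.20 on the log2 scale after centring), Pcolce2 (0.25) and Rspo1 (0.25). Hmcn2, an extracellular matrix protein gene, fell from 24.7 ± 3.9 RPKM (SD, n = 6) in NS to 1.18 ± 0.28 RPKM (n = 5) in 5dw. For Grem1 they were Lpin1 (0.29), Prokr1 (0.30) and S100a4 (0.30), and for Id1 Arvcf (0.28), Dll1 (0.28) and Gpha2 (0.30). None of these genes is a BMP pathway gene of the lists.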

How the data were processed

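RNA-seq libraries of CD140a+ CD45- fibroblasts (poly-A RNA, stranded 100 bp reads, Illumina HiSeq) were available for WT NS (n = 3), Act NS (n = 3), WT 5dw (n = 3) and Act 5dw (n = 2); the authors left out a further Act 5dw library at quality control. The authors mapped them to the mouse genome (GRCm38) with CLC Genomics Workbench, summarised them per gene as the deposited RPKM values, and used the edgeR exact test for their own comparisons. Because RPKM values are not counts, log2(RPKM + 0.5) was fitted here with limma-trend (limma 3.58.1, R 4.3.3) with 1 mean per group over all 11 libraries. Genes with at least 1 RPKM in at least 2 libraries were tested (11979), with Benjamini-Hochberg adjustment over all of them within each comparison and calls at an adjusted p under 0.05. The pooling of 3 mice was carried out across sorting sessions, so p-values measure the spread between pools. The pseudocount understates the change of genes with low levels.

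Whole reads were recovered as the counts that make RPKM times gene length and library total a whole number (tolerance 0.03), which succeeded for 85.6% of the genes tested and for all members, and they were fitted with limma-voom as an alternative. It called 6160 of 10252 genes for WT 5dw against WT NS. Other alternatives were pseudocounts of 0.1 and 1, no filter, a filter of 5 RPKM, median-ratio scaling, a replicate block, a fit of the compared groups alone, and leaving out each library in turn. The fits were tested on simulated data. Genes were located with the GENCODE M21 annotation of GRCm38, and promoters came from RefSeq. Members, role lists and marker lists were chosen with earlier results of these data known. Genes were named by a rule: all members, up to 4 other genes per role list with the largest called log2FC in WT mice, Inhba, Pdgfra and the 3 genes nearest in profile to Bmp4, Grem1 and Id1. Bmper, Fstl1, Id4, Hey1, Dlx5, Tcf3, Tcf12, Gdf5, Gdf6, Bmp10 and single markers were named after their values were seen.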

Additional observations from a re-analysis of the deposited data

How the results depend on the processing

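The directions of Bmp2, Bmp4, Bmp7, Id1, Id2 and Id3 and their calls in both wounding comparisons held under 19 alternative settings and 1 more chosen after seeing the data, which left out WT NS 1 and Act NS 1 together. The counts of members called in either direction stayed within 1.5 times of 8 and 7. With median-ratio scaling the direction was mixed, with 6 members lower and 2 higher in each genotype. A filter of 5 RPKM reduced the other pathway genes called from 30 to 19 in WT and from 27 to 15 in Act mice, with fewer genes tested. The groups hold 2 or 3 libraries each, which limits the precision. Where 1 library was left out of Act 5dw, the lone library was assumed to vary like the other groups.

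All values that changed direction belonged to results that were not called, and none was called there except Bmpr2 with median-ratio scaling. For median-ratio scaling its log2FC was 0.32 in WT wounding and 0.32 in Act wounding, and that of Bmpr1a in Act wounding was 0.012. With the same scaling, the values were 0.022 for Bmp4, 0.040 for Bmpr1a, 0.082 for Bmpr2 and 0.0016 for Id1 in Act NS against WT NS, and 0.032 for Id1 in Act 5dw against WT 5dw. The interactions became -1.8e-04 for Bmpr2, -0.061 for Grem1 and -0.021 for Id2. Id1 in Act 5dw against WT 5dw was 0.0060 with a pseudocount of 0.1 and 0.020 with limma-voom. Without WT NS 1 and Act NS 1, Id1 was 0.22 and Id3 0.0097 in Act NS against WT NS, and the interactions were -0.0027 for Bambi, -0.22 for Id1 and -0.15 for Id2. The cause was not tested.

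Leaving out 1 library at a time, the log2FC in WT wounding ranged from -0.0097 to 0.31 for Bambi, and in Act wounding from -0.12 to 0.087 for Bmpr2. In Act NS against WT NS it ranged from -0.33 to 0.057 for Bmp4, -0.14 to 0.026 for Bmpr2, -0.59 to 0.089 for Grem1 and -0.35 to 0.10 for Id1. In Act 5dw against WT 5dw it ranged from -0.42 to 0.16 for Bmp7, -0.062 to 0.15 for Bmpr2, -0.34 to 0.089 for Grem1, -0.10 to 0.027 for Bambi and -0.25 to 0.30 for Id1. The interaction ranged from -0.28 to 0.13 for Bmp2, -0.072 to 0.50 for Bmp7, -0.0096 to 0.20 for Bmpr2, -0.24 to 0.44 for Grem1, -0.12 to 0.44 for Id1 and -0.13 to 0.28 for Id2.

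The labels do not say what libraries with the same replicate number share, and 10 of 11 correlated best with their own number, a hint from the data and not from the design. The correlation of their deviations was -0.12 to 0.55 over 15 pairs (12 above 0.1). The median of the other 30 pairs was -0.14. Deviations cancel out within a group, so this negative median is partly built in and is not an independent contrast. The Act 5dw libraries, for example, gave exact opposites (-0.12 and 0.12 with WT NS 1). With the replicate block, 8 members were called in WT and 7 in Act wounding, and the genes called overall rose from 6978 to 7317 in WT and from 5459 to 5718 in Act mice. The block turned Bmpr2 in Act wounding to 0.0033 and the interaction of Grem1 to -0.13, and changed no call of a member.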
